A study of Ovis aries with 16 samples.

Results

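Collagens, matrix metalloproteinases (MMPs) and tissue inhibitors of metalloproteinases (TIMPs) were followed in the fetal sheep hypothalamus. Every array probe whose gene name began with COL, MMP or TIMP and a number was taken, which gave 19 of the 15008 probes and 11 genes. The collagens were COL2A1, COL3A1, COL4A3 and COL6A1, the proteases were MMP2, MMP7, MMP9, MMP13 and MMP14, and the inhibitors were TIMP2 and TIMP3. Hypothalamus came from late-gestation Ovis aries fetuses of chronically catheterized ewes, mostly twins, and littermates were not named. Normoxia control fetuses (NC, n = 3) had a 30 min period of normoxia, and hypoxia control fetuses (HC, n = 5) had 30 min of hypoxia produced by low oxygen in the ewe's inspired gas. The other fetuses received ketamine, an anesthetic that blocks NMDA-type glutamate receptors, intravenously before normoxia (NK, n = 4) or hypoxia (HK, n = 4). All of them had surgery and catheters, and all tissue was taken 24 h after the start of the stimulus, after 23.5 h of normoxic recovery.

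Collagens are the main structural proteins of the extracellular matrix. Type III and type I collagens form fibrils in the meninges and in vessel walls, type II is the fibrillar collagen of cartilage, type VI forms beaded microfibrils, and type IV builds the network of basement membranes, which in brain line every capillary. MMPs are zinc proteases that cut these proteins, and TIMPs bind and block the active enzymes. MMP14 is anchored in the cell membrane and activates pro-MMP2, MMP2 and MMP9 are gelatinases known for cutting basement membrane type IV collagen, MMP13 is a collagenase and MMP7 is a small secreted protease.

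The probe sequences are shown for COL4A3, COL3A1, MMP14 and TIMP3, because how far the probes of a gene overlap decides whether they are separate readings. Capitals mark bases that 2 probes share, and each sequence runs 5′ to 3′ over 60 bases. The COL3A1 probes shared 58 of their 60 bases and were nearly 1 reading repeated. Of the MMP14 probes, A_70_P031016 and A_70_P031017 shared 29 bases, and the other two shared no stretch with them. The probes for COL4A3 and TIMP3 were single. Of the genes not shown, COL2A1 had a single probe, and the MMP2 probes shared no stretch with each other.
COL4A3 A_70_P016881: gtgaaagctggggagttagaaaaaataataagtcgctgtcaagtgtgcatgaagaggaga
COL3A1 A_70_P016306: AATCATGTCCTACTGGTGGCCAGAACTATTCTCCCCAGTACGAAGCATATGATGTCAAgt
COL3A1 A_70_P016307: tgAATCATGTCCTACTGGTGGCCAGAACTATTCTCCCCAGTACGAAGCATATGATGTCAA
MMP14 A_70_P031016: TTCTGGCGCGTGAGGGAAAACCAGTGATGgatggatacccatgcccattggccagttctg
MMP14 A_70_P031017: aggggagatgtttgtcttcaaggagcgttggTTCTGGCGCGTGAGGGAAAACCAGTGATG
MMP14 A_70_P050291: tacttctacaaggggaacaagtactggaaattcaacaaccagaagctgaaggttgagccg
MMP14 A_70_P050426: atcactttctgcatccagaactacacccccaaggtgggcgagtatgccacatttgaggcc
TIMP3 A_70_P021571: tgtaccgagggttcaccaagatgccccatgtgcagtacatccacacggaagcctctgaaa

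Levels are given in log2 units from the upper quartile (75th percentile) of all spots on the same array, so that 0 is the signal at that percentile. A level belongs to its own probe and is not set against that of another probe. Of the 19 probes, 14 were well above background on at least 3 of the 16 arrays and were tested (5 collagen, 7 MMP and 2 TIMP probes). Those well above background on all 16 arrays were COL2A1, MMP2 A_70_P026546 and A_70_P026547, TIMP2 and TIMP3. COL4A3 was above it on 15 arrays, all but HK1. The 5 probes that were not tested were COL6A1 A_70_P041682, MMP7 A_70_P016332, MMP9, and MMP14 A_70_P031016 and A_70_P050291, each above background on 0 to 2 arrays. Both COL6A1 probes were dim, and the array's own description calls their target the alpha 3 chain of type VI collagen, so the gene name and the description disagree.

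COL2A1, COL3A1 and COL4A3 signals were lower in fetuses given ketamine before hypoxia (HK) than in those given ketamine before normoxia (NK). COL6A1, dim on most arrays, was not called. Of the 5 collagen probes tested, 4 were called lower, and the median log2 difference over the 5 was -0.92. A probe was called where limma gave an unadjusted p under 0.05, which is the study's own cutoff. Over all 14 tested member probes, 6 were lower and 0 higher in HK than in NK, with a median of -0.36. One of the 6, MMP14 A_70_P050426, was above background on no HK array and on 1 NK array. MMP14 A_70_P031017, also among the 6, met the minimum for testing only through NK, where it was highest, and supports no count. The COL3A1 probes, both among the 6, are nearly 1 reading repeated. Of all 12249 probes tested, 8.69% were called in this comparison, 6.31% lower and 2.38% higher, and their median was -0.0066. No member passed Benjamini-Hochberg adjustment over the 12249 probes (smallest adjusted p = 0.339 in limma), and 1 probe of the whole array did (0.00816%). In tissue of many cell types, fewer cells of a type and less RNA per cell cannot be told apart.

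COL4A3 encodes the alpha 3 chain of type IV collagen. The alpha-1 and alpha-2 chains, partners in most basement membranes, were read by probes outside the naming rule. Those were not called between HK and NK (-0.27 and 0.08). Its levels were -4.51, -4.63 and -4.72 in NC and -4.33, -4.15, -4.49 and -4.24 in NK. They were -4.13, -5.18, -4.21, -4.78 and -4.21 in HC and -5.67, -4.74, -5.48 and -5.46 in HK. All 4 HK arrays lay below all NK and all NC arrays, and HK2 alone reached into the range of HC. By mean and SD the order was NK (-4.30 ± 0.14), HC (-4.50 ± 0.46), NC (-4.62 ± 0.11) and HK (-5.34 ± 0.41).

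COL4A3 was lower in HK than in NK by a log2 difference of -1.04 ± 0.23 (SE), a 2.05-fold lower signal (95% interval -1.54 to -0.53, limma adjusted p = 0.339). It was also called lower in HK than in HC, by -0.84 ± 0.22 (adjusted p = 0.685). HC and NC, neighbours in that order, differed by 0.11 ± 0.24 (adjusted p = 0.921, 95% interval -0.41 to 0.63), and NK and NC by 0.32 ± 0.25 (adjusted p = 1.00), although the 4 NK arrays lay above the 3 NC arrays. The interaction, the ketamine difference after hypoxia minus that after normoxia, was -1.15 ± 0.34 (adjusted p = 0.994). Comparisons here share arrays (NC, NK, HC and HK each enter 2 of them), so their calls are not independent of each other. The size depended on background handling: the HK against NK difference was -0.32 with normexp correction and -0.20 in the deposited log2 values, and the HK against HC difference was -0.27 and -0.16, still called in each. On slide 1 alone, with 2 arrays a group, neither these differences (-0.97 and -0.55) nor the interaction (-0.88) passed, and on slide 2 alone, with 2 NK, 3 HC and 2 HK arrays, both differences did (-1.11 and -1.07). The interaction on slide 2 alone (-1.42) rests on a single NC array, NC3, which is assumed to vary like the other groups, and is given as a value only.

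COL2A1, a fibrillar collagen, was measured well above background on every array. Under normoxia its levels were -0.85, -0.91 and -1.12 without ketamine and -0.66, -0.53, -0.55 and -0.73 in NK. After hypoxia they were -1.51, -0.81, -1.49, -0.94 and -0.90 without ketamine and -1.77, -1.68, -1.54 and -1.17 in HK. Every NK array lay above every HK array, and HC1 and HC3 lay within the HK range while HC2, HC4 and HC5 lay above it. The HK against NK difference was -0.92 ± 0.17, a 1.89-fold lower signal (95% interval -1.29 to -0.55, limma adjusted p = 0.339), and it was called under every alternative run, slide 1 alone (-1.13) and slide 2 alone (-0.71) included. The called HK against HC difference was smaller at -0.41 ± 0.16 (adjusted p = 0.685) and the interaction was -0.75 ± 0.25 (adjusted p = 0.994). The call against HC was lost in 11 of the alternatives run. These were the deposited values (-0.32), slide 1 alone (-0.57), slide 2 alone (-0.25), the replicate block (-0.35), only HC and HK in the fit (-0.41), array weights (-0.29), and leaving out HC2 (-0.33), HC4 (-0.36), HC5 (-0.35), HK1 (-0.34) or HK2 (-0.36). The interaction was not called on slide 2 alone (-0.72), where NC is 1 array. The 4 NK arrays also lay above the 3 NC arrays, with a difference of 0.34 ± 0.19 that was not called (95% interval -0.06 to 0.74) except with only NC and NK in the fit.

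COL3A1, the chain of fibrillar type III collagen, was read by the probe pair that shares 58 bases. On A_70_P016307 the NC levels were -4.06, -4.67 and -4.69 and the NK levels -4.28, -4.20, -4.39 and -4.20. The HC levels were -5.06, -5.24, -6.02, -4.59 and -4.88 and the HK levels -5.44, -4.76, -5.18 and -5.29. NK was tight and high, and every HK array lay below every NK array. On A_70_P016306, HK levels were -6.10, -4.73, -6.84 and -6.30 and NK levels -4.45, -4.27, -5.37 and -4.03, and HK2 overlapped NK3. Its NC levels were -4.40, -4.80 and -4.50 and its HC levels -4.76, -5.44, -5.85, -4.70 and -5.85. This probe was not well above background on NK3, HC3, HK1, HK3 and HK4. The HK against NK differences were -0.90 ± 0.25 (limma adjusted p = 0.357) and -1.46 ± 0.42 (adjusted p = 0.358) in the order of the probes above. The first was a 1.87-fold lower signal, and no fold is given for the second, which was measured above background on 1 of the 4 HK arrays. With normexp correction they were -0.30 and -0.35 and in the deposited values -0.18 and -0.20, each still called, but the first was not called on slide 2 alone (-0.94) nor the second on slide 1 alone (-1.05).

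The remaining collagen tested, COL6A1 A_70_P041681, was well above background on NK2, HC2 and HK4 only. Its means with SD were -6.44 ± 0.27 (NC), -6.15 ± 0.70 (NK), -6.47 ± 0.89 (HC) and -6.34 ± 0.70 (HK), and no comparison called it.

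The arrays of HK and NK did not overlap for 5 of the 14 member probes, all of them lower in HK, against 3.81% of all tested probes. They were COL2A1, COL3A1 A_70_P016307, COL4A3, MMP14 A_70_P031017 and TIMP3. The MMP14 probe met the minimum for testing only through NK, where it was highest, so its separation supports no count.

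MMP14, the membrane-anchored metalloproteinase, gave the 1 member call between ketamine and no ketamine under normoxia. On probe A_70_P031017, levels were -5.74, -5.96 and -6.18 in NC and -5.36, -5.21, -4.57 and -5.10 in NK. They were -6.49, -6.20, -5.97, -6.53 and -5.59 in HC and -6.46, -5.54, -6.01 and -6.00 in HK. All NK arrays were well above background and lay above every array of the other groups, and of the others only HC5 was well above background. The probe therefore met the 3-array minimum for testing only through NK, the group where it was highest, and its calls and separated groups support no count of members. By mean and SD the order was NK (-5.06 ± 0.34), NC (-5.96 ± 0.22), HK (-6.00 ± 0.38) and HC (-6.15 ± 0.39), where NC, HK and HC overlapped.

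With no NC array above background, the size is given as a bound on the group means of these percentile-centred values. There the NK mean was at least 1.74-fold above NC. The NK mean was set against the higher, per NC array, of this probe's signal and the array's lowest signal well above background. The bound leaves out the spread between arrays: the 95% interval of the measured difference was 0.35 to 1.45. The measured difference was 0.90 ± 0.26 (limma adjusted p = 1.00). It was the 1 call among 14 member probes, where 1.09% of all probes tested were called and 0.865% were called higher. Because the probe was tested only through NK, that count supports nothing about the members. In HK, likewise above background on no array, the same kind of bound gave a mean at least 1.63-fold lower than in NK. The measured HK against NK difference was -0.94 ± 0.24 (limma adjusted p = 0.339, 95% interval -1.45 to -0.43). After hypoxia the ketamine difference was not called (HK against HC 0.15 ± 0.23, adjusted p = 0.905, 95% interval -0.33 to 0.64), and the interaction was -0.75 ± 0.34 (adjusted p = 0.994). The NK against NC and HK against NK calls were lost with normexp correction (0.16 and -0.14), in the deposited values (0.10 and -0.09) and on slide 1 alone (0.57 and -0.72). The bounds therefore do not hold with normexp correction or in the deposited values. Both calls held with each single array left out, with differences of at least 0.74 for NK against NC and of -0.78 or further from 0 for HK against NK. The interaction call was lost in 16 of the alternatives run. These were quantile normalization (-0.47), normexp correction (-0.05), the deposited values (-0.04), slide as a block (-0.71), slide 1 alone (-0.23), the replicate block (-0.64), and leaving out NC2 (-0.75), NC3 (-0.64), NK3 (-0.59), NK4 (-0.76), HC2 (-0.76), HC3 (-0.70), HC5 (-0.61), HK1 (-0.60), HK3 (-0.75) or HK4 (-0.75).

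Of the other MMP14 probes 1 was tested, and it was not called between NK and NC. Probe A_70_P050426, well above background on 3 arrays, read -5.23, -6.44 and -6.26 in NC and -5.48, -6.19, -5.70 and -6.27 in NK, a difference of 0.07 ± 0.38 (limma adjusted p = 1.00, 95% interval -0.75 to 0.89). In HC it read -6.43, -5.87, -6.57, -6.48 and -6.63, with HC2 alone above background. In HK it read -7.30, -5.66, -7.05 and -7.11, not well above background on any array, and the measured difference from NK was -0.87 ± 0.35 (adjusted p = 0.491). With 1 NK array above background, the NK mean did not exceed the bound for HK, so the call establishes no lower signal and no fold is given. That call was lost with normexp correction (-0.13), in the deposited values (-0.07), on slide 1 alone (-0.65), with only NK and HK in the fit (-0.87) and without NK1 (-0.73), NK3 (-0.80), HK1 (-0.70), HK3 (-0.78) or HK4 (-0.76). Probe A_70_P031016, whose sequence overlaps that of A_70_P031017 by 29 bases, was above background on no array and lay between -8.13 and -5.64. Probe A_70_P050291 was above background on NK3 alone, at -4.53, and its other arrays lay between -8.31 and -5.73. Of the 4 probes, A_70_P031017 was the 1 detected on every array of a group, and the difference between probes was not tested.

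The arrays of NK and NC did not overlap for 3 of the 14 member probes, all higher in NK: COL2A1, COL4A3 and MMP14 A_70_P031017. The MMP14 probe was tested only through its NK arrays, so its separation supports no count. The share of all tested probes separated in that direction was 1.57%. The 5 collagen probes tested all had positive NK against NC differences, from 0.03 to 0.34, and limma called none of them. Of all tested probes 44.5% had negative differences, so positive ones were the more common. The COL3A1 probes among the 5 are nearly 1 reading repeated, and COL6A1 was above background on 1 NK array and 0 NC arrays.

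MMP2, the gelatinase that MMP14 activates, had 3 probes, of which 1 was called between HC and NC. On A_70_P026547 the levels were -3.49, -3.99 and -4.03 in NC and -4.04, -3.86, -4.76, -4.26 and -4.32 in HC, and the groups overlapped. The HC against NC difference was -0.41 ± 0.19 (limma adjusted p = 0.609). It lost its call in 17 of the 27 alternatives run, with a difference of -0.24 without NC1 and -0.28 without HC3. On A_70_P026546, well above background on all arrays, the same difference was -0.0017 ± 0.27 (adjusted p = 0.999, 95% interval -0.58 to 0.57). On A_70_P061386, above background on 5 arrays, it was -0.80 ± 0.44 (adjusted p = 0.672).

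COL3A1 A_70_P016307 was the other member called between HC and NC, at -0.69 ± 0.26 (limma adjusted p = 0.521), and its near-identical partner gave -0.75 ± 0.44 (adjusted p = 0.693). The first was not called without NC1 (-0.48), on slide 2 alone (-0.47, with 1 NC array) or with only NC and HC in the fit (-0.69). These were 2 calls among 14 member probes, both lower, where 8.15% of all probes were called, 3.93% lower and 4.22% higher. The median over the members was -0.18 and over all tested probes -0.027.

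MMP7, MMP9 and MMP13 were at or near background in most arrays. MMP13 was above it on NK1, NK2, NK4, HC4, HC5, HK2 and HK4, and on no NC array. Its means with SD were -6.47 ± 1.20 (NC), -5.45 ± 0.40 (NK), -6.63 ± 1.13 (HC) and -5.64 ± 0.28 (HK), so the ketamine groups had the higher means under normoxia (1.01 ± 0.61, limma adjusted p = 1.00) and after hypoxia (0.99 ± 0.54, adjusted p = 0.74), and neither difference was called. MMP7 A_70_P016331 ranged from -8.80 to -4.89 and was above background on NC2, NK2, HC1 and HK1. MMP9 was above background on HK3 alone, at -4.73, and its other arrays lay between -8.43 and -6.52.

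TIMP3, the matrix-bound member of the inhibitor family, was well above background on every array. The NC levels were -1.46, -1.57 and -1.33 and the NK levels -1.34, -1.50, -1.42 and -1.31. The HC levels were -1.18, -1.08, -1.58, -0.80 and -1.42 and the HK levels -1.64, -1.63, -1.90 and -1.53. HK was the lowest group and overlapped HC only through HC3. TIMP3 was lower in HK than in HC by -0.46 ± 0.14, a 1.38-fold lower signal (limma adjusted p = 0.685). The difference passed in every alternative except slide 2 alone (-0.44). Against NK it was -0.28 ± 0.14 (adjusted p = 0.619), which limma did not call although the arrays did not overlap. That difference, unchanged at -0.28, was called with the replicate block, with only NK and HK in the fit, and without HC3 or HC4. The interaction was -0.52 ± 0.21 (adjusted p = 0.994), and it was not called with normexp correction (-0.37), on slide 2 alone (-0.41, with 1 NC array), without NC2 (-0.47) or without HK3 (-0.45).

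TIMP2, a soluble inhibitor that also takes part in the activation of pro-MMP2 by MMP14, did not pass in any comparison. Its means with SD were -2.26 ± 0.11 (NC), -2.29 ± 0.09 (NK), -2.40 ± 0.33 (HC) and -2.34 ± 0.22 (HK). The 95% interval of the HK against NK difference ran from -0.39 to 0.29.

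Between HK and HC, limma called 3 of the 14 member probes, COL2A1, COL4A3 and TIMP3, and all were lower. Of all tested probes 7.04% were called, 3.79% lower and 3.25% higher, and the members' median of 0.02 lay close to the 0.03 of all probes. The 7 MMP probes had a median of 0.08 with none called. In the interaction 4 of 14 were called, all negative (COL2A1, COL4A3, MMP14 A_70_P031017 and TIMP3), where 3.8% of all probes were called, 2.49% negative and 1.31% positive. Of these, MMP14 A_70_P031017 was tested only through NK and supports no count. No member passed adjustment in any of the 5 comparisons.

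Further collagen, MMP-1 and TIMP-1 probes did not meet the naming rule and were found from their descriptions after the values were known, so they support nothing. Of 14 such probes 13 were tested. The probe described as the complete alpha-1 chain of type III collagen, TC6830, was well above background on every array and shared no stretch with the COL3A1 probes. The NC levels were -2.99, -3.79 and -3.42 and the NK levels -3.36, -2.68, -2.25 and -2.99. The HC levels were -3.74, -4.22, -5.58, -3.82 and -3.99 and the HK levels -5.08, -4.50, -5.50 and -4.90. The HK arrays were all below the NK and NC arrays. The HK against NK difference was -2.17 ± 0.37, a 4.51-fold lower signal (limma adjusted p = 0.303), and against NC the HC arrays were lower by -0.87 ± 0.39 (adjusted p = 0.587).

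The other type III probe, LOC100101231, differed by -0.70 ± 0.32 between HK and NK (limma adjusted p = 0.569). TC6870, described as the alpha-1 chain of type I collagen, read -2.90, -2.50, -3.34 and -2.46 in NK and -3.67, -3.78, -3.89 and -3.69 in HK. TC20447, described as the same chain, read -3.15, -2.68, -2.91 and -2.43 in NK and -3.76, -3.41, -3.50 and -3.37 in HK. In both, all HK arrays lay below all NK arrays, and both were called lower, TC6870 by -0.96 ± 0.26 (adjusted p = 0.35) and TC20447 by -0.72 ± 0.23 (adjusted p = 0.39). Type XVI collagen (TC15278) was called lower in HK than in NK (95% interval of the log2 difference -1.99 to -0.20, limma adjusted p = 0.451) and than in HC (-1.23 ± 0.40, adjusted p = 0.685). It was above background on 1 of 4 HK, 2 of 4 NK and all 5 HC arrays, so most HK values lie at background and no fold is given. Probes described as type II, IV, V and XII collagen were not called in this comparison. The type II probe, TC19716, gave -0.29 ± 0.45, where COL2A1 gave -0.92. Type IV alpha-1 (TC18287) gave -0.27 ± 0.23 (adjusted p = 0.827) and type IV alpha-2 (TC12562), the chain partner of alpha-1 in most basement membranes, gave 0.08 ± 0.11 (adjusted p = 0.92, 95% interval -0.16 to 0.32). Both TIMP-1 probes, which share 59 bases, were bright and called in no comparison, and MMP-1 was above background on 3 arrays or fewer.

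Other matrix genes on the array were few. Decorin (DCN), a small proteoglycan that binds collagen fibrils, was higher in NK (mean level 2.49 ± 0.30, SD) than in NC (1.94 ± 0.33) by 0.55 ± 0.23 (limma adjusted p = 1.00) and lower in HK (1.57 ± 0.17) than in NK by -0.92 ± 0.21 (adjusted p = 0.339). Among matrix glycoproteins and proteoglycans 3 of 39 listed genes were tested and DCN was the 1 called. BGN, the related biglycan, gave -0.15 ± 0.27 and SPP1, osteopontin, 0.14 ± 0.31 between HK and NK.

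Of the transforming growth factor beta list, whose ligands induce matrix genes, 9 of 15 genes were tested. TGFB2 was lower in HK than in NK by -1.20 ± 0.48 (limma adjusted p = 0.487), and no other member was called in any comparison between 2 groups. Of 6 tested proteases outside the MMP family, PLAUR, the urokinase receptor, was higher in HC than in NC by 1.29 ± 0.44 (adjusted p = 0.469). CTSD, the lysosomal protease cathepsin D, was higher in HK than in HC by 0.16 ± 0.07 (adjusted p = 0.685) and than in NK by 0.15 ± 0.07 (adjusted p = 0.552). Of 6 tested integrins ITGAM, a leukocyte integrin chain, was higher in HC than in NC by 0.74 ± 0.33 (adjusted p = 0.585). Enzymes of collagen synthesis and crosslinking were not analysed here, since none of the 19 listed carried its name on the array.

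Among the measured markers of fibroblasts and meninges, DCN alone was called lower in HK than in NK without being a member. The part of these markers in the HK against NK result was not tested. Of 8 listed markers 3 were measured, COL3A1, DCN and VIM, and COL3A1 is itself a member. Their mean level lay between 1.17 and 1.44 in NK, 0.55 and 0.84 in HK, 0.78 and 1.31 in NC and 0.48 and 1.1 in HC. COL3A1 and DCN were called lower, and VIM, which many brain cells express, differed by -0.09 ± 0.08 (limma adjusted p = 0.851). Of the 7 endothelial markers tested, SELP was called higher in HK than in NK (3.24 ± 1.06, adjusted p = 0.39), none was called lower, and PECAM1 was well above background on all arrays. The tissue label was checked on its markers: all 6 measured hypothalamic neuropeptide genes, OXT, GNRH1, SST, AGRP, NPY and PMCH, were well above background on 15 or 16 arrays. The pituitary hormone gene LHB was higher in HK than in NK by 0.21 ± 0.09 (adjusted p = 0.496), and the choroid plexus marker TTR ranged from -2.64 to 3.47 between arrays.

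Among 1304 named probes, the genes most like COL4A3 over the 16 arrays were DKC1, a component of the enzyme that modifies ribosomal RNA (Pearson r = 0.91, Spearman rho = 0.82), CSNK1E, casein kinase I epsilon (0.90 and 0.78), and EIF4GI, a scaffold of translation initiation (0.88 and 0.82). For MMP14 A_70_P031017 they were FZD2, a Wnt receptor (r = 0.75, rho = 0.75), PRKAA2, a catalytic subunit of AMP-activated kinase (0.67 and 0.78), and LOC100125624, described as the notch ligand jagged 1 (0.66 and 0.80). The arrays share their 4 groups and 2 slides, and most MMP14 values in these correlations were below background.

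Of the microglia and macrophage markers, CD14 moved in both comparisons that involve HC and ITGAM in 1 of them. Their part in the member results was not tested. Of 10 listed markers 2 were tested, CD14, a receptor for bacterial lipopolysaccharide, and ITGAM, and both were called higher in HC than in NC (CD14 by 1.34 ± 0.59, limma adjusted p = 0.583). CD14 was lower in HK than in HC by -1.35 ± 0.55 (adjusted p = 0.688), and ITGAM was not called (-0.08 ± 0.30). The mean level of the pair lay between -4.16 and -3.80 in NC, -4.40 and -3.57 in NK, -3.72 and -1.89 in HC and -4.20 and -2.80 in HK. Of the 7 endothelial markers, the adhesion molecules SELP (4.70 ± 1.09, adjusted p = 0.342) and ICAM1 (2.42 ± 0.80, adjusted p = 0.442) were called higher and the receptor KDR (-0.67 ± 0.28, adjusted p = 0.547) lower in HC than in NC, and none was called between HK and HC. Their mean level lay between -3.96 and -3.50 in NC, -3.96 and -3.44 in NK, -3.66 and -2.20 in HC and -3.73 and -2.55 in HK.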

How the data were processed

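RNA of 16 fetuses was measured on 1-color Agilent sheep arrays (cyanine 3) spread over 2 slides. The deposited scanner files hold intensity values, which the authors' Feature Extraction software (10.1.1.1 in the file headers) had corrected for background and spatial trends but which were not normalized between arrays. The authors also deposited log2 values. These were rebuilt to within 5e-09 by normexp correction and quantile normalization. Control spots (536) and outlier spots (0.0801% of the others) were left out. Intensities were converted to log2 and centred on each array's 75th percentile. The test covered the 12249 of 15008 probes that exceeded background clearly on 3 or more arrays.

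Comparisons used limma 3.58.1 in R 4.3.3, with 1 model of the 4 groups on all 16 arrays (13.7 degrees of freedom), two-sided, and called at an unadjusted p under 0.05 as in the study's methods. Benjamini-Hochberg adjusted p-values covered all 12249 probes. The procedure was tested on simulated data. The number of arrays limits the precision, and 71.7% to 80.6% of probes were well above background on an array. Each array was a separate fetus, but the paper states that normoxia or hypoxia was assigned at random by pregnancy. Littermates could not be modelled, so fetuses of the same ewe may be counted here as separate replicates. The p-values measure the spread between these arrays.

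The members, gene lists and tests were chosen with earlier results of these data known. Named probes were COL4A3 and MMP14, every member called or not overlapping between groups, the members with the highest and lowest signal of each family, and called members of the pathway lists. Gene names come from the array design, and the 10 member probes with a RefSeq accession matched the RefSeq table of assembly ARS-UI_Ramb_v3.0. No genome build is named in the files, and no coordinates are given. The alternatives were quantile normalization, normexp correction, the deposited values, no filter, a filter on all arrays, slide as a block, each slide alone, the replicate number as a block, only the groups compared, array weights, 1 probe a gene, and each array left out.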

Additional observations from a re-analysis of the deposited data

Results flagged for a closer look

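Arrays far from the others of their group were sought among 42 groups of 4 or 5 arrays, where chance gives about 1 in 20, and 3 were found. On MMP14 A_70_P050426, HC2 stood above the other HC arrays at -5.87 and HK2 above the other HK arrays at -5.66. On MMP2 A_70_P061386, HC3 stood below the other HC arrays at -7.44.

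The ketamine difference after hypoxia differed from that after normoxia in limma's interaction test, at an unadjusted p under 0.05, for COL4A3 (-1.15), COL2A1 (-0.75), MMP14 A_70_P031017 (-0.75) and TIMP3 (-0.52). In the first 2, NK had the highest mean and HK the lowest. In MMP14 NK had the highest mean and HC the lowest, and in TIMP3 HC had the highest mean and HK the lowest. None passed adjustment (smallest adjusted p = 0.994). MMP14 A_70_P031017 was tested only through NK and supports no count, and its interaction call was lost in 16 of the alternatives run.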

How the results depend on the processing

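The number of member probes called was 2 for HC against NC, 1 for NK against NC, 3 for HK against HC, 6 for HK against NK and 4 for the interaction. The counts for NK against NC, HK against NK and the interaction include MMP14 A_70_P031017, which was tested only through NK. HK against HC kept its count within 1.5 times under every alternative run, but not always through the same probes. On slide 1 alone COL4A3 and COL2A1 were not called, and on slide 2 alone COL2A1 and TIMP3 were not. For HC against NC the count was 1 with no filter, with the filter on all arrays, with slide as a block, with the replicate block, with only the 2 groups compared and with 1 probe a gene. For NK against NC it was 0 with normexp, with the deposited values, with the filter on all arrays and on slide 1 alone, 2 with no filter, and 3 with only the 2 groups compared. On slide 2 alone it was 2, a count that sets 2 NK arrays against 1 NC array, NC3, assumed to vary like the other groups. For HK against NK it was 1 with the filter on all arrays, which left 5 members, and 2 on slide 1 alone, and the interaction gave 2 with normexp and with the filter on all arrays. With single arrays left out the counts ran from 0 to 3, 1 to 2, 2 to 4, 5 to 7 and 2 to 5, in the order above. Replicate numbers did not pair the arrays: same-numbered arrays of different groups correlated between -0.06 and 0.35 in their deviations, and numbers largely follow slide (median 0.22 within and -0.18 between slides). The replicate block gave 1, 1, 3, 7 and 3 calls in the same order.

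For single member probes called or not overlapping in the main fit, 435 of 514 alternative values kept direction and side of the threshold. Of the others, 73 lost the call, 6 gained one and 0 changed direction. The probes were chosen by their main result, and 304 of the 514 alternatives left out a single array, so agreement in direction was favoured in advance. Probes near background limit the MMP results: their log2 differences shrank several-fold with an offset or with the deposited values. The HK against NK differences of COL4A3 and COL3A1 shrank several-fold as well, so their folds depend on the background handling. The cause of each lost call was not tested.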
